A study of Arabidopsis thaliana with 134 samples.

Results

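The table of transcript levels held 28775 genes. Of these, 100 had transcripts in seedlings of the Arabidopsis thaliana accession Tnz-1 and values near 0 in seedlings of the accession Ws-2. They were selected on the parents themselves. A member had at least 5 TPM (TPM is a gene's length-corrected share of a library's transcripts, set to sum to 1000000 over all genes) in both Tnz-1 libraries and at most 0.1 TPM in both Ws-2 libraries. The parental levels are therefore given as a description. The tests below rest on the recombinant inbred lines, whose libraries the selection did not use. Of the 100 members, 5 belong to lists of seed storage, oil body and late embryo proteins, and they are kept apart from the 95 other members.

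Whole seedlings were grown for 12 days in short days of 8 h light and 16 h dark, and were sampled at ZT10, that is 10 h after lights came on. The light groups had received 2 h of extended light and the dark groups had been in darkness since ZT8, in separate cabinets, so the light change and the cabinet cannot be told apart. There were 65 recombinant inbred lines, named WT in the sample titles and taken as lines because the series describes no other plants, each with 1 light and 1 dark library. Tnz-1 and Ws-2 had 1 light and 1 dark library each, which makes 134 libraries in all. All groups shared the medium, with 3% sucrose, and the growth temperature of 22 °C. In all groups the seeds had 4 days of stratification and were sown in clusters of about 50. The labels do not say how many seedlings went into a sample. In such bulk samples fewer cells of a type and less RNA per cell cannot be told apart. TPM carries no read depth, so the precision of a value near 0 is unknown, and between 7999 and 10459 genes were listed at 0 in a library. The processing notes name the build TAIR10, from the accession Col-0, which is neither parent. Whether reads of alleles that differ from it were lost was not tested, so off below means a low listed value.

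Recombinant inbred lines descend from a cross of both parents, followed by repeated selfing, so that a line carries nearly everywhere either the allele of one parent or that of the other. Neighbouring genes are usually inherited together, and genes of different chromosomes are not. A variant at or beside a gene that changes the level of that same gene is said to act in cis, and the level then goes with the allele inherited at that place. A variant elsewhere in the genome acts in trans. Seed storage proteins (cruciferins and albumins), oleosins of the oil body and late embryo proteins are made in the maturing embryo and are shut off as the seedling grows.

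The upstream sequences of a pair of seed members are shown because the seed genes had more split states than the median of the set, as described below. Each line below gives the 250 bases before the annotated gene start, 5′ to 3′ on the gene's own strand, in the RefSeq annotation of TAIR10.1. That reference is the accession Col-0, which is neither parent. Capitals mark the RY core CATGCA, bound by B3 factors such as ABI3 and FUS3, and the abscisic acid response core ACGTG, bound by bZIP factors such as ABI5, on either strand. CACGTG holds ACGTG on both strands and counts as 2 matches, and RY cores may overlap.
SESA4 (AT4G27170), chr4:13613346-13613595, plus strand: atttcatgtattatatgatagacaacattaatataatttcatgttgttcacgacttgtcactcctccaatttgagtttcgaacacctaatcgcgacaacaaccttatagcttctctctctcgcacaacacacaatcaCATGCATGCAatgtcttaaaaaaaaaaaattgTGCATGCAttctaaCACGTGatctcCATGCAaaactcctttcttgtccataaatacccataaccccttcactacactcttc
AT3G18570, chr3:6396625-6396874, minus strand: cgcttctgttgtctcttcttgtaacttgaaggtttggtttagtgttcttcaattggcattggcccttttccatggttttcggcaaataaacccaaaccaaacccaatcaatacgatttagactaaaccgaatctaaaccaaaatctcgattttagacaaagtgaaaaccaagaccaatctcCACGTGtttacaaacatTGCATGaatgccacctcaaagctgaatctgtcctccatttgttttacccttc
In this window SESA4 held 6 RY cores and 2 ACGTG matches, and AT3G18570 held 1 and 2. AT1G03890 held 1 RY core and CRU2 (AT1G03880) held neither motif. An RY core lay within these 250 bases in 9 of 93 other members (9.68%), beside 30 of the 47 genes on the 3 seed lists (63.8%) and 8.76% of 27995 genes with such a window. ACGTG was found in 24.7% of the other members, 37 of the 47 list genes (78.7%) and 22.9% of all genes. A match is a run of letters and no measured binding site.

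In Tnz-1 the members spanned a wide range of levels. PSRP6 (AT5G17870), a protein of the large subunit of the chloroplast ribosome, had 1110 TPM in the light and 979 TPM in the dark, and was listed at 0 in Ws-2. CRU2, a cruciferin, came next with 417 TPM in light and 665 TPM in dark Tnz-1 seedlings. Among the other members DI21 (AT4G15910), a drought-induced gene, had 163 and 252 TPM, GATA4 (AT3G60530), a zinc finger transcription factor, had 153 and 241 TPM, AT2G14880, a protein with a SWIB/MDM2 domain, had 147 and 206 TPM, and AT2G43530, a protein of the scorpion toxin-like knottin family, had 123 and 106 TPM, each in the light and the dark library of Tnz-1. The median over the other members, taken over the mean of both Tnz-1 libraries, was 14.6 TPM. In Ws-2, 89 of the 100 members were listed at 0 in both libraries. At the border of the selection, AT5G38050 was inside with 5.74 TPM in light and 5.03 TPM in dark Tnz-1, and AT1G24793 was outside with 8.36 and 4.95 TPM. CYCA3;1 (AT5G43080), a cyclin, was inside with 0.10 TPM in light Ws-2, and AT5G07990 was outside with 0.11 TPM in 1 Ws-2 library.

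The members had varied annotations. The reference annotation gave 91 members as protein-coding and 7 as noncoding, and 2 (AT3G45242 and AT3G53668) were not in it. Sorted by annotation, after the members were known, 14 act in the nucleus or on RNA, among them GATA4, MOS2 (AT1G33520, a G-patch protein of the nucleus), RHL2 (AT5G02820, the A subunit of topoisomerase VI) and MED10A (AT5G41910, a Mediator subunit). A further 12 are metabolic enzymes, 8 are proteins of chloroplasts or mitochondria, 8 are cell wall proteins, secreted proteins or proteases, 7 belong to stress and hormone responses, 6 to membrane traffic and transport and 5 to defence. The remaining 24 coding genes outside the seed group carry only a family name or none. ATS3 (AT5G07190), an embryo-specific protein, and HSD1 (AT5G50700), a hydroxysteroid dehydrogenase of oil bodies, also belong to the embryo but stand outside the lists and were counted among the other members.

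Most of the other members were on in some of the recombinant lines and off in most of the rest. A line was counted as on for a gene when both of its libraries had at least 1 TPM, as off when both were below 1 TPM, and as split when they differed. Over the 95 other members the median gene was on in 23 of 65 lines (35.4%), and 31.4% of all gene and line pairs were on, 63.3% were off and 5.28% were split. EMB1793 (AT1G76060), a protein of the LYR family, was on in the most lines, 32 of 65 (49.2%). AT1G69510, a relative of a cAMP-regulated phosphoprotein, AT2G46490, of unknown function, AT5G24460, a RING-H2 zinc finger protein, and AT5G38720, a ribosomal RNA processing protein, followed with 31 lines each. The fewest on lines were 0 for AT3G21950, annotated as a methyltransferase, 1 for AT3G13404, 2 for AT4G18680, annotated as a delay of germination protein, 3 for ATS3 and 4 for AT1G65490. No member was on in more than 32 lines.

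**Figure D1:**
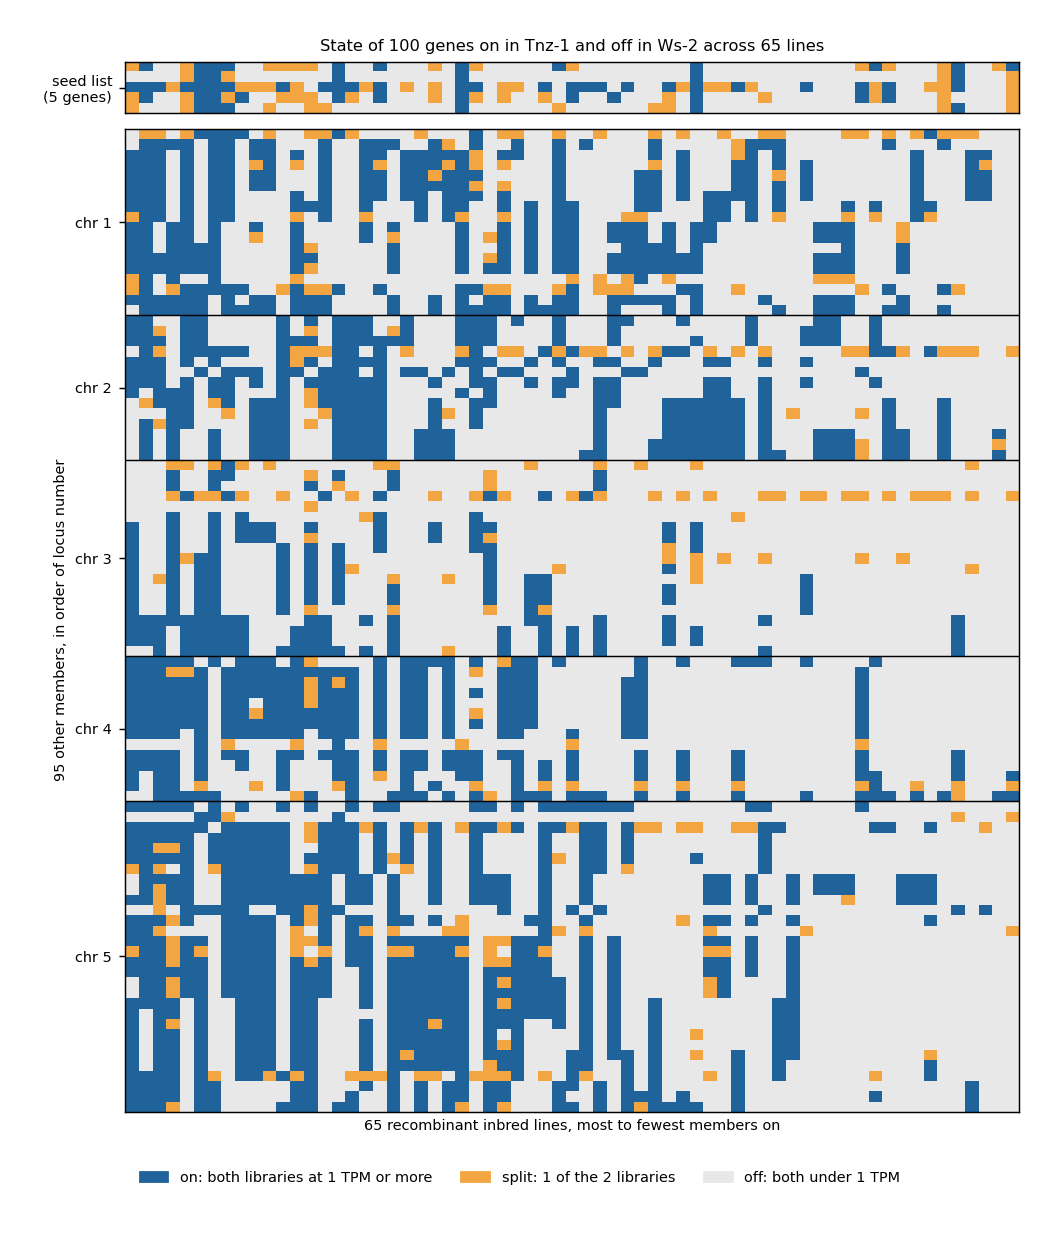
State of each of the 100 members (rows) in each of the 65 lines (columns). Blue marks lines on in both libraries, orange marks lines with 1 library at or above 1 TPM and grey marks lines off in both. The 5 seed members are at the top and the 95 other members follow in order of locus number with lines between chromosomes, and the columns run from the line with 65 other members on to the line with 2. Vertical blocks of one colour run through neighbouring rows of the same chromosome, and orange is denser in the seed rows.

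Off lines were close to empty. For 86 of the 95 other members the median over the off libraries was 0, and for 17 every off library was listed at 0. PSRP6 is the most abundant example. Its 25 on lines ran from 2.38 to 1301 TPM with a median of 871 TPM, its 38 off lines reached at most 0.36 TPM, and 2 lines were split. GATA4 had 15.3 to 686 TPM in its 19 on lines, at most 0.22 TPM in its off lines, and 1 split line. MOS2 had no split line, with 3.22 to 58.4 TPM in its 27 on lines and at most 0.43 TPM in its 38 off lines. AT2G14880 also had none, with 13.2 to 189 TPM in 25 on lines and at most 0.71 TPM elsewhere. In all, 25 of the 95 other members had no split line and 63 had at most 2. Of the 201 genes with the opposite parental pattern, described below, 94 had no split line and 167 had at most 2.

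On lines mostly lay below the Tnz-1 level, a direction that the selection itself favours. Members had to reach at least 5 TPM in Tnz-1, whereas a line counted as on from 1 TPM. Over the 94 other members with an on line, the median ratio of the on level to the mean of both Tnz-1 libraries was 0.705, with 11 ratios over 1 and 21 under 50% of the Tnz-1 level. Both Tnz-1 values lay inside the range of the on lines for 50 of them. The ratio ran from 0.146 for AT1G68250, of unknown function, to 1.81 for UPI (AT5G43580), a protease inhibitor of defence. UPI had 17.6 TPM in light and 8.66 TPM in dark Tnz-1, against a median of 23.8 TPM in its 23 on lines.

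Some lines sat between the parental levels. For PSRP6, 19 on lines had between 571 and 1301 TPM in every library, and 6 were lower. Line 47 had 265 TPM in light and 125 TPM in dark, line 35 had 212 and 153 TPM, line 31 had 172 and 153 TPM, and line 2 had 106 and 140 TPM. Line 9 had 419 and 441 TPM. Line 54 was near the floor with 5.69 TPM in light and 2.38 TPM in dark. AT2G14880 showed the same shape, with 104.5 to 189 TPM in 17 on lines and 13.2 to 83.9 TPM in 8. Among the 54 other members that were on in at least 15 lines and split in at most 2, 184 of 1339 on states (13.7%) were below 50% of that gene's median on level. These low states were unevenly spread over lines, since lines 31, 2, 16, 13 and 65 held 67 of the 184 (36.4%). In line 2 alone, 15 of 29 on genes were that low, and the same line had the most split genes, 24 of 95.

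**Figure D2:**
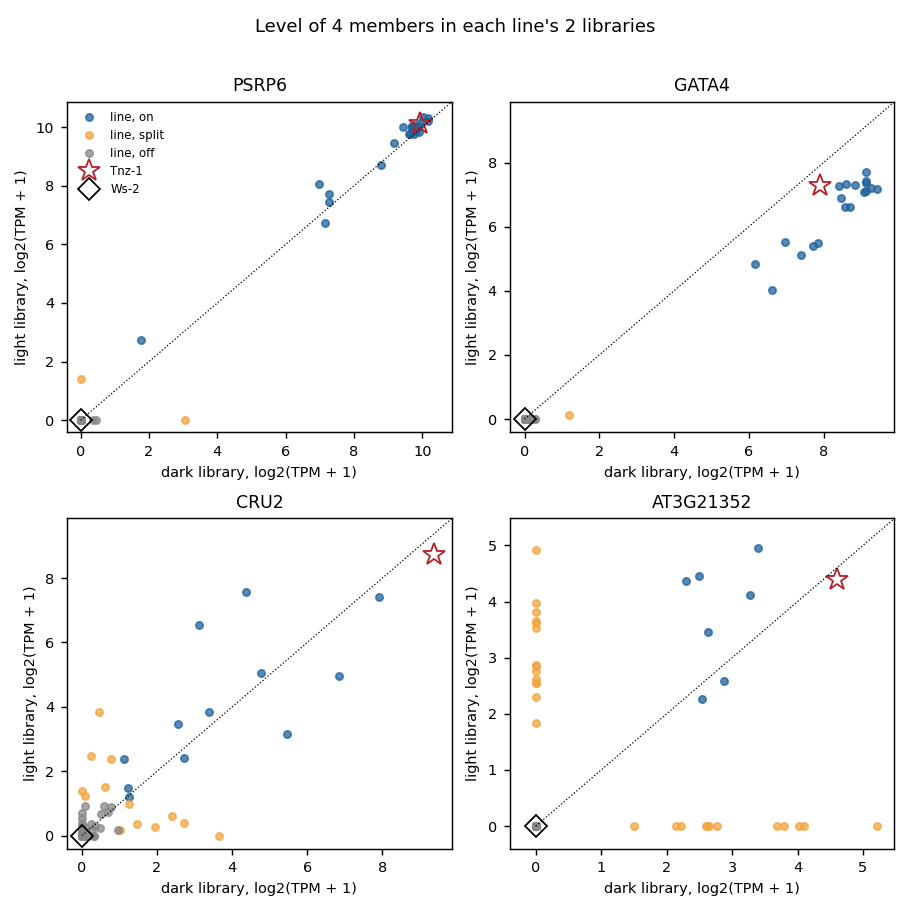
Level of PSRP6, GATA4, CRU2 and AT3G21352 in the light library (vertical) against the dark library (horizontal) of each line, as log2(TPM + 1), with the parents as open symbols. The dotted line marks equal levels. PSRP6 and GATA4 form a group near the origin and one near Tnz-1 with some lines between them, all GATA4 on lines lie below the dotted line, CRU2 lines spread out below Tnz-1, and AT3G21352 is split in 26 lines.

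A line's light and dark libraries carried nearly the same set of members. Over the 95 other members, the light and dark library of a line were on the same side of 1 TPM for a median of 95.8% of genes, from 74.7% in line 2 to 98.9%, against a median of 55.8% between libraries of different lines. The dark library shared the most states with its own line's light library, or tied for the most, in 60 of 65 lines. In the other 5 (lines 12, 18, 21, 57 and 76) the best match was the light library of 1 other line, and these were the pairs 12 and 23, 18 and 57, and 21 and 76. By limma, line effects passed at an adjusted p under 0.05 for 86 of the 87 members with a mean of at least 1 TPM over the line libraries, beside 83.9% of the 18111 genes tested, so that the count alone is close to the background. The size of the agreement was further from it. The intraclass correlation, the share of the variance that lies between lines, was over 0.95 for 51 of the 87 members, beside 6.66% of all genes tested. Its median over the other members was 0.958, with AT2G14880 highest at 0.998. The selection had asked for the same state in both libraries of each parent, and genes of the opposite parental pattern, described below by their states, had a median of 0.957.

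AT3G21352, of unknown function, was the exception. It had 19.8 TPM in light and 23.3 TPM in dark Tnz-1, but it was split in 26 of 65 lines, on in 7 and off in 32, and its intraclass correlation was 0.081 (adjusted p for line = 0.20 by limma). In each split line 1 library was listed at 0, and the other had the transcript, the light library in 14 lines and the dark library in 12, with up to 36.3 TPM. Its neighbour AT3G21351 shares 84.0% of its coding letters, and had a median of 6.80 TPM in the on lines of AT3G21352 and 2.38 TPM in its off lines. Of the other members, 11 were split in 10 or more lines. Their Tnz-1 means ran from 6.33 to 32.6 TPM with a median of 14.5 TPM, and their median on level was 4.86 TPM, against 13.5 TPM for the 63 members split in at most 2 lines.

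The median share of on lines was lowest on chromosome 3. Medians over the other members were 37.7% on chromosome 1 (18 genes), 35.4% on chromosome 2 (14 genes), 36.9% on chromosome 4 (14 genes) and 37.7% on chromosome 5 (30 genes). On chromosome 3 the median over 19 genes was 15.4%, with a range of 0 to 29.2%. Single genes were also low elsewhere. Ranges were 6.15% to 49.2% on chromosome 1, 27.7% to 47.7% on chromosome 2, 3.08% to 44.6% on chromosome 4 and 4.62% to 47.7% on chromosome 5. The lowest point, AT3G21950, lies in the upper part of that chromosome, and shares mostly climbed on the side of higher locus numbers, to 19 of 65 lines (29.2%) for GATA4, COR413-PM2 (AT3G50830, a cold-regulated plasma membrane protein), AGD6 (AT3G53710, an ARF-GAP of vesicle traffic) and AT3G53668. Genes of the opposite parental pattern, which were off in Tnz-1 and on in Ws-2 by the same limits and numbered 201, were on in a median of 72.3% of lines.

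**Figure D3:**
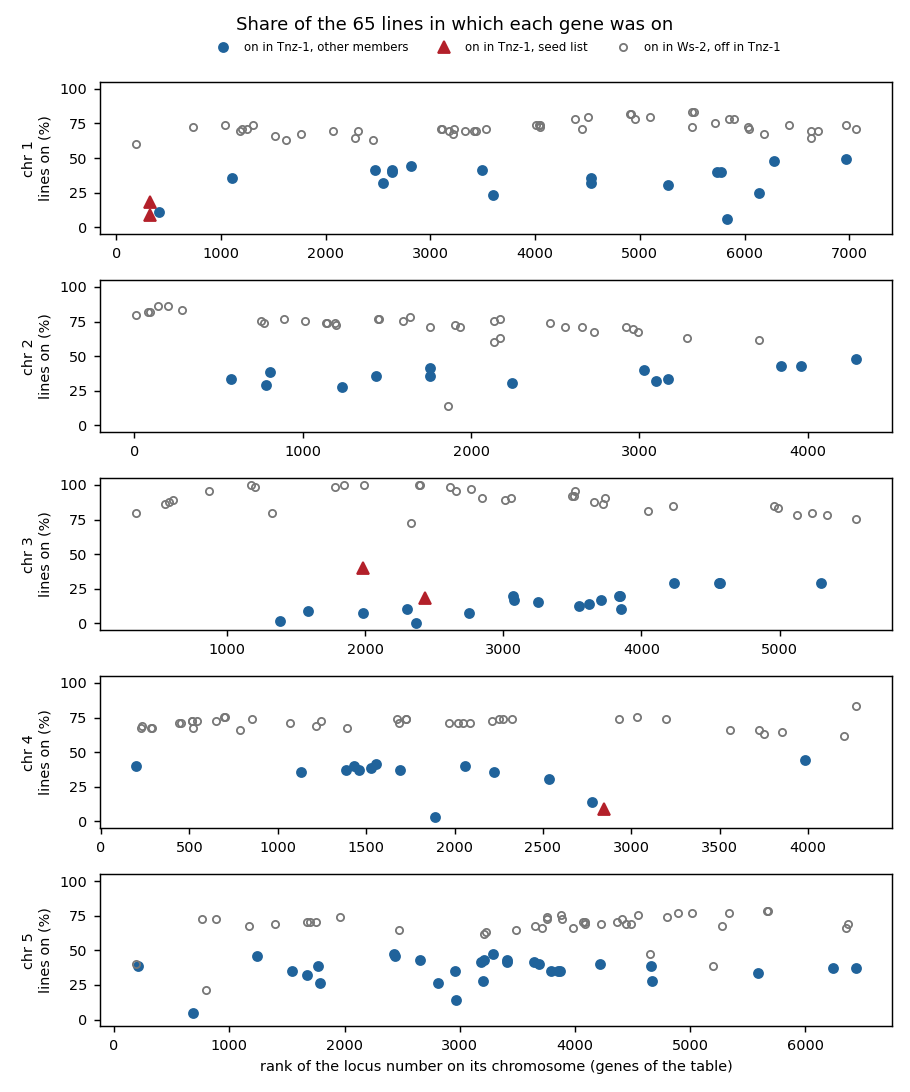
Percent of the 65 lines in which each gene was on (vertical) against the rank of its locus number on the chromosome (horizontal), for the 95 other members (filled circles), the 5 seed members (triangles) and the 201 genes of the opposite pattern (open circles). Other members lie mostly between 25% and 50%, fall to 0 on chromosome 3 where open circles reach 100%, and the triangle at 40% on chromosome 3 (AT3G18570) stands above its neighbours.

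Few members were side by side, and most of those that were shared their states across lines. Within 10 genes of the next there were 11 runs with 23 members in them, 4 of them adjacent pairs. The longest run held AT3G47250, HSD3 (AT3G47360, a hydroxysteroid dehydrogenase) and AT3G47380, a pectin methylesterase inhibitor relative. AT3G47250 and HSD3 were in the same state in all 65 lines, and HSD3 and AT3G47380 in 59 of 61. The adjacent pairs AT1G25055 and AT1G25083, AT1G52825 and CDT1 (AT1G52827, a cadmium tolerance peptide), and AT5G39790 and AT5G39800 (a starch targeting protein and a mitochondrial ribosomal protein) never differed, in 61, 61 and 62 lines with clear states. AT3G53668 and AGD6 also matched in all 65 lines.

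Agreement fell off with distance. Pairs of other members 11 to 100 genes apart were in the same state in a median of 98.2% of lines, those 101 to 500 apart in 89.5%, those 501 to 1000 apart in 76.5% and those 1001 to 3000 apart in 64.3%. Pairs on different chromosomes shared states in a median of 59.4% of lines. Since members are off in most lines, many of these matches are shared off states.

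**Figure D4:**
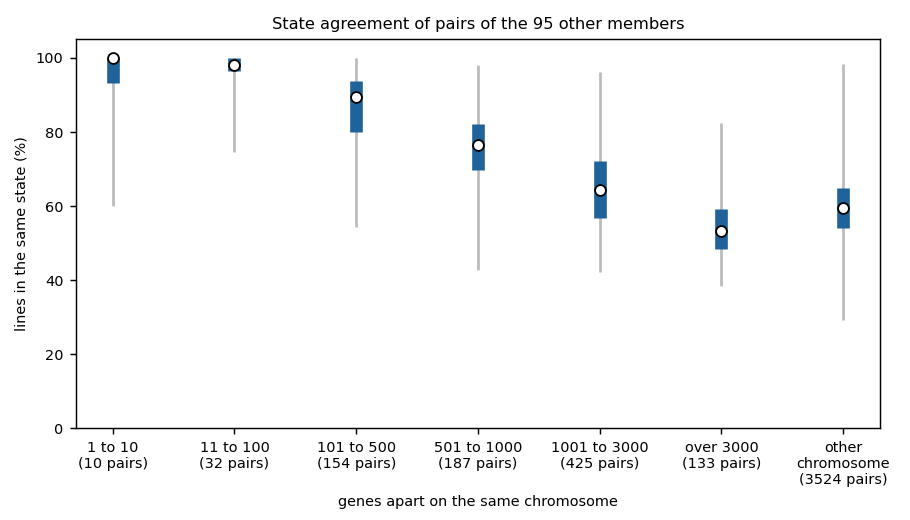
Percent of lines in which 2 of the 95 other members were in the same state (vertical), by the number of genes between them (horizontal). White points are medians, thick bars the middle 50% of pairs and thin lines the full range. Medians fall from 100% for the 10 closest pairs to 53.2% for pairs over 3000 genes apart, beside 59.4% for different chromosomes, and the lowest value among the closest pairs is 60%.

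Genes of the opposite pattern gave the mirror image. For each other member the nearest gene that was off in Tnz-1 and on in Ws-2 had the reverse state in a median of 88.9% of lines, from 54.8% to 100%. Pairs of a member and an opposite gene on different chromosomes were reversed in a median of 60% of lines. Where both genes of a pair were on in at least 10 lines and off in at least 10, the medians were 88.1% for 74 nearest genes and 58.1% for pairs on different chromosomes. For 2 of the other members, AT3G21950 and AT3G18535, the nearest opposite gene was never off. Over 5706 pairs of a gene and a line with clear states, 87.6% were reversed, 9.78% had both genes on and 2.58% had both off. SAUR20 (AT5G18020), a small auxin-responsive gene, was the reverse of its nearest opposite gene AT5G17660 in all 59 lines.

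A few members did not follow their own place in the genome. Of the 54 members on in at least 15 lines and split in at most 2, the best matching gene of either pattern was on the same chromosome for 50. scpl22 (AT2G24000), a serine carboxypeptidase, was in the same state as AT2G24020, 2 genes away, in only 39 of 65 lines (60%), but matched AT4G16960, a disease resistance gene of the TIR type on chromosome 4, in 62 of 65 (95.4%), and matched or mirrored 7 further chromosome 4 genes in 91.9% to 92.2%. AT5G28350 on chromosome 5 matched GATA4 on chromosome 3 in 60 of 62 lines (96.8%), and was the reverse of AT3G60960 in 60 of 63. The remaining pair of these 4 members are GATA4 and AT4G16960 themselves, whose best matches were these same genes. AT5G28350 has a near copy, AT3G61480, which shares 98.3% of the coding letters and lies on the same part of chromosome 3. That copy had a median of 2.62 TPM in the lines on for AT5G28350 and 21.8 TPM in the lines off for it. How reads were shared between the copies was not tested.

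Near copies touched other members too. Of the 91 members with a coding sequence, 33 had a second gene in the table whose letters were 80% or more identical along no less than 50% of their length, and 11 had one at 95% or more. Levels of these members are uncertain, since reads can be divided between copies. AT4G12510, a lipid transfer protein relative, had 13.1 TPM in light and 11.8 TPM in dark Tnz-1, and its copy AT4G12520 (99.5% identity) had 4.98 and 4.95 TPM there, against 93.8 and 82.6 TPM in light and dark Ws-2. In the lines, AT4G12520 had a median of 8.88 TPM where AT4G12510 was on and 88.0 TPM where it was off. Among the 24 copies with a median of at least 1 TPM in the on or the off lines, 7 had less than 50% of their off-line level in the on lines, and 11 had more than 2 times that level. HSD1 is identical in coding letters to AT5G50600, which is on the oil body list and had 218 and 230 TPM in light and dark Tnz-1, so the 15 split lines of HSD1 may not be read as its own. Whether the noncoding members AT1G60505, AT2G35945, AT4G26542 and AT4G37225 shared reads with coding genes beside them was not tested. The libraries were made with a kit that marks strand.

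The seed members had fewer on lines and more split states than the other members, a difference that was not tested. Their median share of on lines was 18.5%, and 18.8% of gene and line pairs were split, against 5.28% for the other members. Their intraclass correlations had a median of 0.768, against 0.958. Summed over the 5 genes, Tnz-1 had 576 TPM in the light and 889 TPM in the dark, and Ws-2 was listed at 0 throughout. Light libraries of the lines ran from 0 to 339.5 TPM with a median of 3.04 TPM, and dark libraries from 0 to 382.7 TPM with a median of 2.04 TPM. No line reached the sum of its parent Tnz-1, a shortfall that the selection on Tnz-1 levels favours. Over the whole lists, the highest lines exceeded Tnz-1 in some cases. The highest dark sums were 15958 TPM for seed storage genes (dark Tnz-1, 14330 TPM), 2880 for oil body genes (3021) and 6858 for late embryo genes (5440). In the same order, the highest light sums were 8071 TPM (light Tnz-1, 12161 TPM), 1910 (2580) and 5898 (5510). Altogether 34 of 65 lines had no seed member on, 19 had 1 on, 12 had 2 or more, and 4 had all 5 (lines 35, 51, 54 and 66).

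CRU2 was on in 12 lines, off in 40 and split in 13, with 1.17 to 238 TPM and a median of 9.80 TPM in the on lines. AT1G03890, a cupin and its neighbour, was on in 6 lines, and both were in the same state in 46 of 50. SESA4, a seed storage albumin, was on in 6 lines with a median of 13.7 TPM, against 115 TPM in light and 170 TPM in dark Tnz-1. ATECP31 (AT3G22500), a late embryo protein, was on in 12 lines with a median of 4.34 TPM, and the oleosin AT3G18570 was on in 26 lines with a median of 3.34 TPM. Each of these medians lay below both Tnz-1 values, on which the members were selected. The oleosin was on in 40% of lines on the chromosome where the other members had a median of 15.4%.

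The states of the seed members were also set beside those of their neighbours. The nearest opposite gene was never off for 2 of the 5, AT3G18570 and ATECP31, so a reversed share there restates the member's own off lines. For CRU2, AT1G03890 and SESA4 it had the reverse state in 65%, 72.9% and 69.1% of lines. The oleosin AT3G18570 and AT3G18535, a tubulin-tyrosine ligase relative 3 genes away, shared states in 20 of 45 lines. Where AT3G18535 was on, 3 of 5 lines had at least 1 library with 1 TPM or more of the oleosin, and where it was off, 40 of 58 had. For ATECP31 beside AT3G25400 these were 4 of 5 and 24 of 58. Beside AT1G10865, the shares were 47.8% and 35% for CRU2, and 17.4% and 15% for AT1G03890. SESA4 had 25% in both cases beside AT4G24420. These last 3 neighbours lay 314 to 788 genes away, and the differences were not tested.

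Levels of the seed members tended to be high in the same lines. Across 130 libraries, on the log2(TPM + 1) scale, the correlation of 2 seed members had a median of 0.554 and ran from 0.311 (ATECP31 and SESA4) to 0.912 (CRU2 and AT1G03890). These values describe libraries that share lines and growth. Among the 95 other members, 4 had a correlation over 0.5 with the mean of the seed members, namely ATS3 (0.81), AT1G68250 (0.72), AT4G18680 (0.59) and AT2G19320 (0.56), and the median was 0.114. Line 35 had the highest sum, with 282 TPM in light and 383 TPM in dark. Line 5 had 340 and 39.6 TPM, and line 50 had 88.4 and 170 TPM. In line 50 SESA4 was listed at 0 in both libraries, although ATECP31 had 42.5 TPM in light and 38.01 TPM in dark, above Tnz-1.

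The seed members belong to lists of genes that were mostly higher in Tnz-1. All 13 seed storage genes were higher in Tnz-1 than in Ws-2 in the light and in the dark, and 3 of them are members. Their sum was 12161 TPM in light and 14330 TPM in dark Tnz-1, against 220 and 337 TPM in light and dark Ws-2. All 11 oil body genes were higher in Tnz-1 as well, with sums of 2580 and 3021 TPM against 66.5 and 179 TPM, and 1 is a member. Of 23 late embryo genes 18 were higher in Tnz-1 in both conditions, and 1 is a member. AT4G21020, a late embryo gene of the opposite direction, was listed at 0 in Tnz-1 and had 4.11 and 14.3 TPM in light and dark Ws-2. Of 10 seed regulators 5 were, among them ABI3 with 13.5 and 24.9 TPM in Tnz-1 against 1.30 and 3.21 TPM in Ws-2, and none is a member. LEC1 and LEC2, master regulators of embryo identity, were listed at 0 in all 4 parental libraries. CRU1 and CRU3, the other cruciferins, were present in Ws-2 with 69.2 and 126 TPM in the light. With 1 library a group, these parental differences have no replicate check. The part of these lists in the levels of the other members was not tested. In the lines, all 46 genes of the 3 seed lists that were tested had a line effect (limma, adjusted p under 0.05), beside 83.9% of all genes. For light with all lines, 0 of 12 storage genes, 0 of 11 oil body genes and 1 of 23 late embryo genes passed with a difference of at least 1, the last one higher in light, beside 5.48% of all genes. At the adjusted p alone 10 of the 46 were higher, beside 36.1% of all genes, and 1 was lower, beside 25.5%. The lists were chosen with results known. The leaf markers RBCS1A, CAB1, LHCB2.1 and RCA summed to 33656 and 32614 TPM in light and dark Tnz-1 and to 33026 and 34495 TPM in Ws-2. These sums hide opposite differences, since 3 of the leaf markers were higher in Tnz-1 in both conditions and CAB1 was lower. CAB1 had 2204 and 2794 TPM in light and dark Tnz-1, against 5901 and 6933 TPM in Ws-2. The root markers PIN2, COBL9, EXPA7 and CASP1 summed to 28.7 and 28.4 TPM in Tnz-1 and to 92.4 and 66.3 TPM in Ws-2, and all 4 were present in every parental library. Of these 4, 2 were higher in Tnz-1 in both conditions, and CASP1 carried the difference of the sums.

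Lines that matched in nearly all other members could differ in the seed members. There were 10 pairs of lines, of 2080, in which at least 95% of the clear states of the 95 other members were the same, against a median of 57.1%. Lines 38 and 39 matched in 97.7% of states, yet the seed members summed to 204 TPM in light and 33.7 TPM in dark in line 38, and to 4.93 and 2.35 TPM in line 39. Lines 3 and 6 matched in 96.6%, and the sum was 2.17 and 0.34 TPM in line 3 and 11.9 and 80.9 TPM in line 6. In the remaining 8 pairs no library had a sum over 15.53 TPM. Near-identical pairs are not independent lines, and without the higher-numbered line of each, the median share of on lines was 36.4% for the other members and 20% for the seed members.

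No member passed the test for a light change of 1 log2 unit or more when all 65 lines entered it. In limma on log2(TPM + 1), 993 of 18111 genes (5.48%) passed at an adjusted p under 0.05 with that difference, and 0 of 87 members did. At an unadjusted p under 0.05, 4 of the 87 members were higher in light and 0 were lower, beside 64.3% of all genes in either direction. At the adjusted p alone 3 members were higher in light, beside 36.1% of all genes, and none was lower. AT5G37970, a methyltransferase, was 0.65 ± 0.21 higher (SE, adjusted p = 0.0052), AT1G34640, a peptidase, 0.54 ± 0.19 higher (SE, adjusted p = 0.011), and MLP423 (AT1G24020), a latex protein relative, 0.61 ± 0.25 higher (SE, adjusted p = 0.029). With each line held as a replicate block and no limit on size, 24 members were higher, beside 44.8% of genes, and 23 were lower, beside 32% of genes, and 0 had a difference of at least 1. A fit over all lines dilutes a change in the on lines, since a gene at 0 in both libraries has a difference of 0. Without the block, the fit also ignores the pairing of a line's libraries, so its SE includes the spread between on and off lines. For GATA4 the SE was 0.60 without the block and 0.11 with it, at the same log2 difference. Counts of members from the fit without the block are limited by this.

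Among lines that expressed the gene, changes were larger. Only lines with a mean of at least 1 TPM over both of their libraries entered this fit, each as its own block, and 98 members had at least 5 such lines. Then 7 members rose by at least 1, beside 3.01% of genes, and 6 fell by at least 1, beside 2.98% of genes. At the adjusted p alone 26 were higher, beside 42.8% of genes, and 27 were lower, beside 30.4%. The 13 genes named next were chosen by these results. None of the 5 seed members was among them.

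GATA4 fell most. Its 19 lines had 15.3 to 208 TPM in the light with a median of 135 TPM, and 71.5 to 686 TPM in the dark with a median of 385 TPM. All 19 were lower in the light, and the log2 difference was −1.85 ± 0.10 (SE, limma with block, adjusted p = 5.6e-14). Tnz-1 had 153 TPM in light and 241 TPM in dark. ENODL8 (AT1G64640), an early nodulin-like protein of the cell surface, was lower in the light in all 27 lines, with a median of 16.2 TPM against 36.8 TPM in the dark and a log2 difference of −1.36 ± 0.09 (SE, adjusted p = 1.6e-14). Tnz-1 had 39.4 TPM in light and 135 TPM in dark. AT5G24570, of unknown function, was lower in the light in 29 of 31 lines, with medians of 10.3 and 23.4 TPM in light and dark. SAUR20 was lower in 19 of 22 lines, with medians of 2.17 and 6.95 TPM. The noncoding AT4G26542 fell by 1.15 on the log2 scale and HSD1 by 1.20, with 13 and 15 split lines. In the 9 lines on in both libraries, AT4G26542 was higher in the light in 4 and lower in 5, with a median log2 difference of −0.29, so its fall was carried by split lines. HSD1 was lower in 14 of its 18 on lines.

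Rises of at least 1 were found in 7 members. AT1G23205, an invertase and pectin methylesterase inhibitor relative, had 4.57 to 27.9 TPM in the light with a median of 13.04 TPM, and 0.53 to 11.3 TPM in the dark with a median of 4.36 TPM. It was higher in the light in 28 of 29 lines (log2 difference 1.35 ± 0.11, SE, limma with block, adjusted p = 1.7e-12). CDT1 had medians of 19.1 TPM in light and 5.73 TPM in dark over 25 lines, and 30.2 and 6.36 TPM in Tnz-1. AT5G37970 was 1.43 higher (26 of 28 lines), AT1G34640 1.40 higher (24 of 25), MLP423 1.36 higher (24 of 28), hda10 (AT3G44660, annotated as histone deacetylase 10) 1.07 higher (9 of 10) and AT2G35345, of unknown function, 1.05 higher (25 of 29). Of the 13 genes with a change of at least 1, 9 moved in Tnz-1 in the same direction as in the lines. The exceptions were AT2G35345, AT1G34640, SAUR20 and HSD1. For 7 of the 13, 6 or more lines were split, so that some of their lines entered through 1 library only. In lines on in both libraries, the median log2 difference was 0.96 for MLP423, 0.90 for hda10 and −0.89 for SAUR20, each under 1 in size. It was 1.23 for AT5G37970, 1.21 for AT1G34640 and −1.16 for HSD1. Near copies exist for HSD1, SAUR20, AT5G37970 and hda10, so the levels of these genes are uncertain.

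Smaller and very even decreases were seen in COR413-PM2 and MOS2, which had no split line. COR413-PM2 was lower in the light in all 19 lines, with a median of 66.6 TPM against 114 TPM in the dark (log2 difference −0.70 ± 0.05, SE, adjusted p = 8.5e-11 by limma with block). MOS2 was lower in all 27 lines, with medians of 32.3 TPM in light and 44.6 TPM in dark (−0.52 ± 0.04, adjusted p = 2.1e-12 by limma with block). Both were chosen for naming after their values were seen. PSRP6, the most abundant member, had a difference of 0.11 (adjusted p = 0.48 by limma with block) in the 26 lines with a mean of at least 1 TPM. By class, 6 of 7 stress and hormone members passed at the adjusted p alone, 4 lower and 2 higher, and of 14 members of the nucleus and RNA group 4 were higher and 4 lower, beside 73.2% of all genes in either direction. Among the seed members 1 of 5 passed, the oleosin AT3G18570, which was 0.53 higher (adjusted p = 0.00036 by limma with block).

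**Figure D5:**
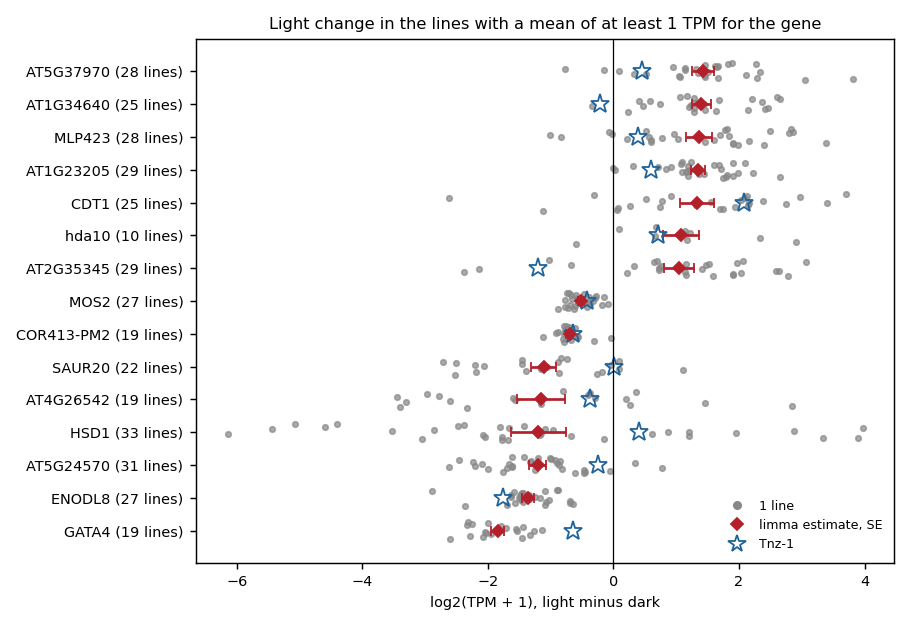
Light minus dark difference, as log2(TPM + 1), in every line with a mean of at least 1 TPM for the gene (grey points), with the limma estimate and its SE (red) and Tnz-1 (open star), for the 13 members that changed by at least 1 and for COR413-PM2 and MOS2. All GATA4, ENODL8, COR413-PM2 and MOS2 points lie below 0, and HSD1 has the widest spread.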

How the data were processed

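Transcript levels of whole Arabidopsis seedlings were deposited by the authors as 1 table of TPM values, with 2 decimals, for 28775 genes and 134 libraries, whose columns each sum to 1000000 within rounding. The submitters' processing notes name cutadapt 3.4, Salmon 1.6.0, GATK and the build TAIR10, without their roles. Per the labels' protocols, RNA was extracted with a column kit, treated with DNase and made into strand-marked poly(A) libraries. Depth per library is not given in the sources used here, and no interval that needs it is printed. No column was left out (columns not used: 0).

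Members, gene lists and classes were chosen with earlier results of these data known, and classes after the members were seen. A gene was on in a line at 1 TPM or more in both libraries. Genes with a mean of at least 1 TPM over the 130 line libraries were tested with limma 3.58.1 in R 4.3.3 on log2(TPM + 1), for light against dark and for line with treatment as a covariate. P-values were adjusted by Benjamini-Hochberg over all genes tested, and called below 0.05 (for light also at a log2 difference of at least 1). Each line gives 1 light and 1 dark library, so p-values for light measure the spread over lines. In the fit without the block, that spread includes the gap between on and off lines. The numbers pair the libraries because the titles give them as the same line. Deviations of a line's light and dark library correlated in all 65 lines, from 0.49 to 0.89. Alternatives were another pseudocount, no filter, median-of-ratios scaling, the replicate block, ranges of line numbers, only expressing lines, other effect thresholds, other on levels and other run widths. Fits were also run on simulated data, drawn as normal noise around each gene's mean. That simulation did not copy the on and off states of the members, so it cannot show how the fits behave on them. Genes named are the seed list members, the 12 other members highest in Tnz-1, the 5 with most and the 5 with fewest on lines, the light calls, runs and list genes. Other members were named as examples after their values were seen. Names come from RefSeq TAIR10.1, which held 98 of the 100 members. Near copies were found with blastn 2.17.0 between coding sequences of that annotation. The upstream sequence of 1 seed member is not reported here.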

Additional observations from a re-analysis of the deposited data

How the results depend on the processing

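The count of members with a light change was 0 of 87 in the test as designed. It stayed at 0 with a pseudocount of 0.1, with no filter on low values, with median-of-ratios scaling, with the range of line numbers as a covariate and with the line as a replicate block. It was 3 with an effect threshold of 0.5 log2 units and 3 with none. In the fit of lines with a mean of at least 1 TPM for the gene, with the line as a replicate block, it was 13 of 98. Chosen after the data were seen, the same counts with no effect threshold were 47 with the replicate block over all lines and 53 in expressing lines. The calls of MLP423, AT1G34640 and AT5G37970 at the adjusted p alone were lost with a pseudocount of 0.1 (adjusted p = 0.13, 0.075 and 0.063 by limma), where the log2 differences were 0.86, 0.87 and 0.94, and the cause was not tested. None of these alternatives reversed the light direction of the 13 members that changed by at least 1 in expressing lines, of COR413-PM2 or of MOS2. PSRP6, which passed no light test, had 0.05 in the test as designed and -0.0014 with a pseudocount of 0.1. Over all genes the light count of 993 was 3375 at the threshold of 0.5 and 11148 with none. The count of members with a line effect was 86 of 87, and 85 of 86 with median-of-ratios scaling and 98 of 100 without the filter, where AT3G13404 and AT3G21352 did not pass. For the share of on lines the other members had medians of 36.9%, 32.3% and 26.2% at on levels of 0.5, 2 and 5 TPM, against 35.4% at 1 TPM. The seed members had 27.7%, 13.8% and 6.15%, against 18.5%. Runs numbered 8 within 5 genes, 11 within 10 and 15 within 20.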

Other observations

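The 5 lines with the highest summed level of the seed members differed widely in how many of the other members they had on. Line 35 had 52.6% of the 95 other members on, line 38 had 51.6%, line 51 had 55.8% and line 50 had 44.2%, but line 5 had 8.42%. The cruciferin CRU3, which is no member, had 2517 TPM in light and 2089 TPM in dark in line 35, 5067 and 9786 TPM in line 50, and 691 and 91.7 TPM in line 5. In line 50 the dark level of CRU3 lay above that of Tnz-1 (5622 TPM in light and 6308 TPM in dark), although CRU2 had 29.9 TPM in light and 114 TPM in dark there, below both Tnz-1 values.

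AT5G50630, a transporter of the major facilitator superfamily, and HSD1 lie 9 genes apart on chromosome 5 and were in the same state in 46 of 50 lines. Where AT5G50630 was on, 23 of 25 lines had at least 1 library with 1 TPM or more of HSD1, and where it was off, 9 of 39 had. Both have copies with identical coding letters elsewhere on that chromosome (AT5G50520 and AT5G50600), so the levels of the members and of their copies are uncertain.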
